A study of Mus musculus with 18 samples.

Results

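The genes described here are a set of type I interferon stimulated genes, which cells switch on when interferon alpha or beta binds its receptor. The set lists 59 mouse genes by name, from general knowledge of the interferon response. A gene was kept when a probe set of the array was annotated to it and to no other gene, and the probe set with the highest mean stood for the gene. This left 56 of the 59, among 19938 genes measured in the same way. The names came from a list and not from the values, but the list was drawn up with earlier results of these arrays known. Isg15, Ifi44 and Ifi204 had no such probe set and were not analysed here.

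Gene expression was measured on 18 Affymetrix whole-transcript arrays, 3 in each of 6 groups, from dendritic cells (DCs) of the mouse thymus that carry the chemokine receptor XCR1. All mice were untreated and of the B6 strain. CTRL mice were wild-type and free of specific pathogens, Ifnar1-KO mice lacked the IFNAR1 chain of the type I interferon receptor, and GF mice were wild-type and germ-free. From each background 2 stages were sorted as CD11c+ MHC class II+ XCR1+ CD8a+ cells without CD11b or CD172a: immature cells, CCR7- and CD117+, and mature cells, CCR7+ and CD117-. The title and design of the study ask whether XCR1+ DCs mature without type I interferon and without microflora. The labels give no age, and do not tie the 3 arrays of a group to different animals, so p-values reflect array-to-array spread, which may be technical.

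Interferon alpha and beta bind a receptor made of IFNAR1 and IFNAR2, which activates the kinases JAK1 and TYK2. These switch on the complex ISGF3, which contains STAT2 and IRF9 and binds a short promoter sequence called the interferon-stimulated response element and raises genes against viruses. Many of the same genes can also be switched on by interferon lambda, interferon gamma or IRF factors such as IRF1, IRF3 and IRF7. In the thymus, type I interferon is known to be made without infection.

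All values are log2 intensities, in which a difference of 1 is a doubling, and levels of different genes are not comparable because each probe set binds differently. A gene was called when its Benjamini-Hochberg adjusted p over all 19938 genes was under 0.05 in limma. Every change is given with its SE. Changes in maturation and differences within a stage compare n = 3 with n = 3 arrays. A difference of maturation uses both stages of each background compared, and averages over both stages compare 6 with 6 arrays. The SE pools the spread of all 18 arrays and so is the same in each background. Group spread was unequal: the median SD of the set ranged from 0.114 (CTRL CCR7-) to 0.399 (Ifnar1-KO CCR7+). The SE may thus be too wide for CTRL and too narrow for Ifnar1-KO. Of the 8 measured markers of mature DCs, 7 were higher in CCR7+ cells of each background. The 8 include Ccr7, whose protein the stages were sorted by, so that gene and its part in the mean below are no independent check. Of 12 XCR1+ DC markers 9 were lower in CTRL, 8 in Ifnar1-KO and 8 in GF, and 1 was higher in each background. The mean of the XCR1+ DC markers was 10.3 to 10.6 on CCR7- and 7.36 to 8.65 on CCR7+ arrays. That of the mature DC markers was 7.79 to 7.897 on CTRL, 6.997 to 7.79 on Ifnar1-KO and 6.77 to 7.995 on GF CCR7- arrays. On CCR7+ arrays it was 10.3 to 10.5. The part of the mature DC markers in comparisons of CCR7- cells and of maturation changes was not tested. Of all genes 12.6%, 9.42% and 9.53% were higher and 13.6%, 10.8% and 11.8% lower in CCR7+ cells of CTRL, Ifnar1-KO and GF. Of 18 thymocyte markers, 4 were higher in CCR7+ cells in CTRL, 3 in Ifnar1-KO and 3 in GF. Their mean was 4.48 to 5.19 on the CCR7- arrays and 5.19 to 6.13 on the CCR7+ arrays other than Ifnar1-KO replicate 2, which read 7.66. In such sorted bulk samples, a change in the make-up of the cells and a change of RNA per cell cannot be told apart. The female gene Xist read 7.80 to 9.63 on CTRL arrays and 3.80 to 4.37 on GF arrays, while the male gene Eif2s3y read 3.34 to 3.49 and 7.71 to 8.76. Ifnar1-KO arrays carried both, with 6.14 to 8.91 for Xist and 5.22 to 7.84 for Eif2s3y. GF housing and sex cannot be told apart, and Ifnar1-KO differed from CTRL in sex make-up as well as genotype. On Ifnar1-KO replicates 1, 2 and 3, Eif2s3y read 6.83, 6.08 and 5.22 in CCR7- and 7.84, 7.69 and 6.35 in CCR7+ cells. Xist was lower on the CCR7+ array of each of these pairs. Of 4 measured sex-linked genes, 1 was called higher in Ifnar1-KO maturation and 0 in CTRL or GF. The part of sex in Ifnar1-KO maturation and in its difference from CTRL was not tested.

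RefSeq promoters (GRCm38.p6, from 250 bases before to 50 after the start) were found for 44 of the 56 genes. A response element core, spelled GAAANNGAAA and searched on both strands, lay in 18 of them (40.9%), against 3.89% of the promoters of all measured genes. The gamma-activated site TTCNNNGAA, also searched on both strands, lay in 8 (18.2%), against 8.99%. In 2 member promoters a match of one motif overlapped a match of the other. By call in CTRL maturation, from CCR7- to CCR7+ cells, 4 of 10 genes called higher, 5 of 14 called lower and 9 of 20 not called held the core. To show this, 4 promoters follow, those of the standard marker Ifit1, of the genes with the strongest rises in CTRL maturation, Epsti1 and Ube2l6, and of the gene with the strongest fall, Ifi205. Each is in lower case, 5′ to 3′ along the gene's own strand, with a match of the core in capitals. The Ifit1 promoter is chr19:34640639-34640938 (+), the Epsti1 promoter chr14:77903989-77904288 (+), the Ube2l6 promoter chr2:84798578-84798877 (+) and the Ifi205 promoter chr1:174031706-174032005 (-).
Ifit1: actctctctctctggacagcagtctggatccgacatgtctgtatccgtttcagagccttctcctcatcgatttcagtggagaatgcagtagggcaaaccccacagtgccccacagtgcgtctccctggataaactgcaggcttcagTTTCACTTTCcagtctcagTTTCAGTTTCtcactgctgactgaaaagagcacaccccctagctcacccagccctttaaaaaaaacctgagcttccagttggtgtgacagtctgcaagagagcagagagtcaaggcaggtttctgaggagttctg
Epsti1: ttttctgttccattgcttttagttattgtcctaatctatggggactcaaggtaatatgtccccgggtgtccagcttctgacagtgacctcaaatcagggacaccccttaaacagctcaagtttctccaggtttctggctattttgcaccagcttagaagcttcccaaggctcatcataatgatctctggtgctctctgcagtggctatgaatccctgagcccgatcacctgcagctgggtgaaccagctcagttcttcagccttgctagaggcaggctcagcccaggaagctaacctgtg
Ube2l6: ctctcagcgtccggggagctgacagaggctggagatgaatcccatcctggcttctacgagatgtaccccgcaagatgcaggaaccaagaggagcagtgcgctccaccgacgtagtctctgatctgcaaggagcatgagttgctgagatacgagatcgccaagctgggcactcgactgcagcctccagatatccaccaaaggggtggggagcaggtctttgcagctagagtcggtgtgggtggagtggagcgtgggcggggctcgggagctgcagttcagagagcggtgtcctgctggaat
Ifi205: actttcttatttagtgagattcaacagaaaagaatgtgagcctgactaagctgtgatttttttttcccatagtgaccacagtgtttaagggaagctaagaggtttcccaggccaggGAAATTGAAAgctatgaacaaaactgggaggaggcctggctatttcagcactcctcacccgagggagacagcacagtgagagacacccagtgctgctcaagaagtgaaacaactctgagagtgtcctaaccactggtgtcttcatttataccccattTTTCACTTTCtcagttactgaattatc

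Ifit1 held 2 matches, which began 104 and 85 bases before the start, and Ifi205 held 2, beginning 134 bases before and 23 bases after it. Neither Epsti1 nor Ube2l6 held one in this window. Ifit1 rose and Ifi205 fell in maturation, as described next.

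The first comparison was homeostatic maturation, CCR7+ minus CCR7- cells, in each background. Interferon stimulated genes moved both ways. In CTRL mice 11 of 56 were higher (12.6% of all genes were), led by Epsti1, Ube2l6 and Herc6. Another 16 were lower (13.6% of all genes), led by the DNA-binding proteins Ifi205 and Ifi203 and by Slfn8, and 29 were not called. The 27 called were 48.2% of the set, beside 26.2% of all genes called in CTRL maturation. In Ifnar1-KO cells 18 were higher (9.42% of all genes) and 11 lower (10.8%), together 51.8% of the set beside 20.2%. In GF cells 11 were higher (9.53% of all genes) and 15 lower (11.8%), together 46.4% of the set beside 21.3%. The set has few genes of low intensity: 54 of the 56 lay at or above the median level of all genes. When the model was refitted and p adjusted over those 9969 genes alone, 55.6%, 64.8% and 53.7% of the 54 were called in CTRL, Ifnar1-KO and GF. Beside them stood 44.9%, 40.2% and 40.8% of the 9969. The median change of the 56 genes was -0.08 in CTRL, 0.22 in Ifnar1-KO and -0.05 in GF, against 0.07, 0.00 and 0.03 over all genes. It turned to 0.01 in CTRL without CCR7- or CCR7+ replicate 2 and to -0.14 without CCR7- replicate 1. In Ifnar1-KO it was 0.01 without CCR7+ replicate 1 and 0.37 without CCR7+ replicate 2, and in GF it was -0.13 without CCR7+ replicate 2 and close to 0 without CCR7- replicate 1 or CCR7+ replicate 3. Without direction, the median size of change was 0.60, 0.66 and 0.73, against 0.19, 0.13 and 0.15 over all genes.

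**Figure D1:**
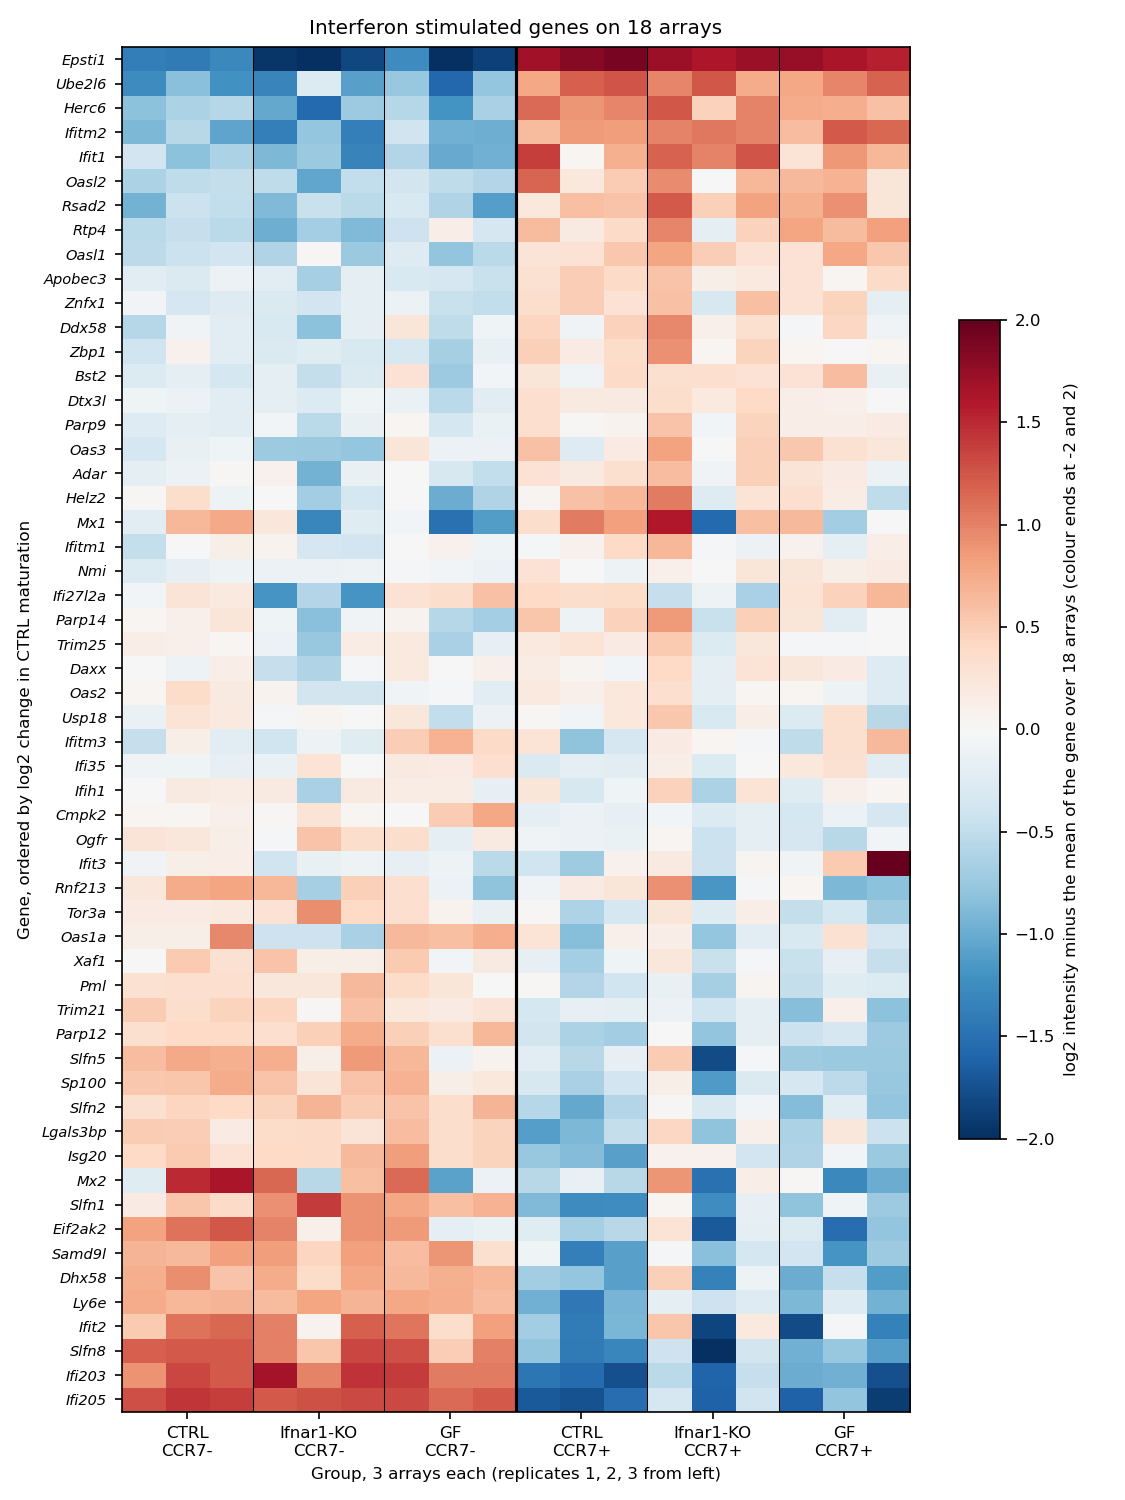
Each row is 1 of the 56 genes and each column 1 of the 18 arrays, with CCR7- groups on the left of the thick line and CCR7+ groups on the right; colour is the log2 intensity minus the mean of the gene over all arrays. Genes at the top (Epsti1, Ube2l6, Herc6) were higher and genes at the bottom (Ifi205, Ifi203, Slfn8) lower on every CCR7+ array, and the second Ifnar1-KO CCR7+ array read lower than its group for many genes.

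A core of 21 genes was called in the same direction in all 3 backgrounds (37.5% of the set, beside 15.4% of all genes). Of these, 11 were higher: Ifit1, Oasl1, Oasl2, Rsad2, Epsti1, Ifitm2, Dtx3l, Rtp4, Herc6, Ube2l6 and Apobec3. The other 10 were lower: Isg20, Ifi203, Ifi205, Ly6e, Parp12, Samd9l, Sp100, Slfn1, Slfn2 and Slfn8. No gene was called in opposite directions, 49 of 56 had the same sign in all 3 backgrounds, 15 were called in some and 20 in none. The 9 CCR7+ and the 9 CCR7- arrays did not overlap for 21 genes, these without Rtp4 and with Cmpk2, beside 15.3% of all genes. Same-numbered arrays of the stages deviated together in CTRL and Ifnar1-KO, so calls that a replicate block changed there are given. In CTRL the block added Slfn5 (adjusted p 0.0285), Mx2 (0.0125), Parp9 (0.0275), Adar (0.0155) and Znfx1 (0.0342). In Ifnar1-KO it added Slfn5 (0.0328), Dhx58 (0.0183), Eif2ak2 (0.00446), Ifitm1 (0.0411), Parp14 (0.0215) and Znfx1 (0.0461), and Isg20 was lost (0.0960). When only the Ifnar1-KO arrays entered the fit, Apobec3, Parp12, Slfn8, Sp100 and Isg20 lost their Ifnar1-KO call.

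**Figure D2:**
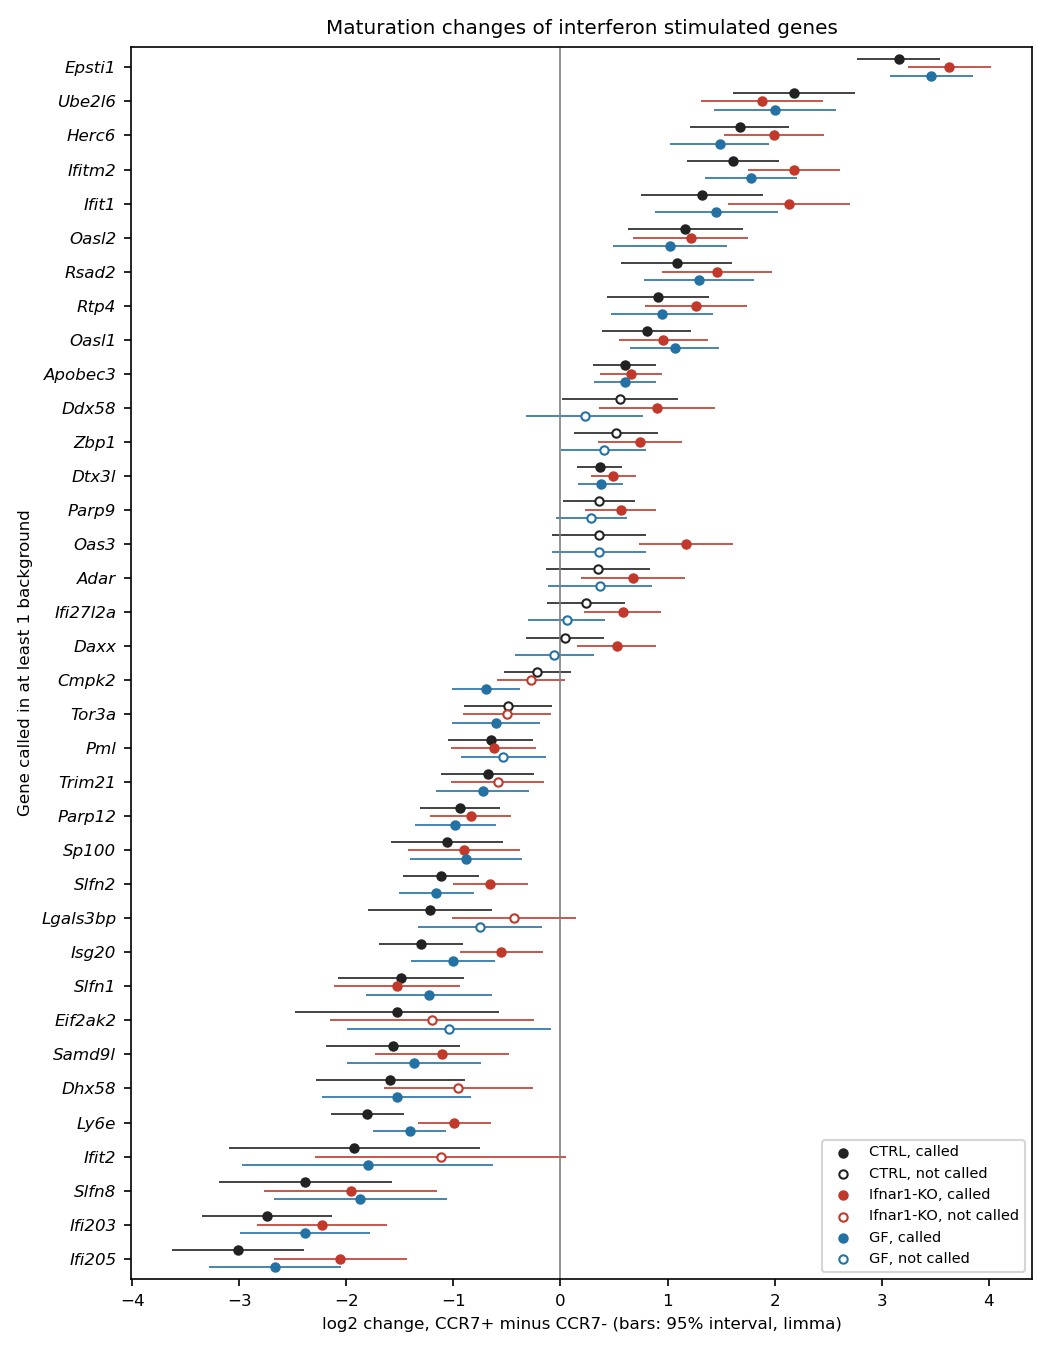
Points are log2 changes from CCR7- to CCR7+ cells and bars their 95% intervals, in CTRL (black), Ifnar1-KO (red) and GF (blue), for the 36 genes called in at least 1 background; filled points were called. Epsti1 rose by 3.16 to 3.63 in the 3 backgrounds and Ifi205 lay between -3.01 and -2.06, and for no gene did filled points lie on both sides of 0.

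Of 3 genes for the conjugation or removal of ISG15, 2 rose in each background, Ube2l6 and Herc6 (9.42% to 12.6% of all genes were higher). ISG15 is a ubiquitin-like protein that interferon induces. UBE2L6 is the enzyme that carries it, HERC6 the ligase that attaches it in mice, and USP18 the protease that removes it and also blocks the interferon receptor. Ube2l6 read 7.43, 7.86 and 7.47 on the CTRL CCR7- arrays, 7.36, 8.40 and 7.59 on the Ifnar1-KO and 7.92, 7.12 and 7.90 on the GF CCR7- arrays. In CCR7+ cells Ube2l6 read 9.46, 9.88 and 9.94 in CTRL, 9.66, 9.93 and 9.42 in Ifnar1-KO and 9.45, 9.66 and 9.86 in GF. The stages did not overlap, and the rise of 2.18 ± 0.27 in CTRL (4.52-fold, adjusted p 1.91e-05) stood beside 1.88 ± 0.27 in Ifnar1-KO and 2.01 ± 0.27 in GF cells. Herc6 read 7.15, 7.32 and 7.39 on the CTRL CCR7- arrays, 6.94, 6.42 and 7.24 on the Ifnar1-KO and 7.39, 6.78 and 7.31 on the GF CCR7- arrays. In CCR7+ cells Herc6 read 9.09, 8.85 and 8.94 in CTRL, 9.20, 8.42 and 8.96 in Ifnar1-KO and 8.71, 8.69 and 8.54 in GF. Every CCR7+ array lay above every CCR7- array, with changes of 1.67 ± 0.22, 1.99 ± 0.22 and 1.49 ± 0.22 in CTRL, Ifnar1-KO and GF. Usp18 read 9.35, 9.77 and 9.69 on the CTRL CCR7- arrays, 9.46, 9.54 and 9.48 on the Ifnar1-KO and 9.72, 8.998 and 9.38 on the GF CCR7- arrays. In CCR7+ cells Usp18 read 9.52, 9.44 and 9.71 in CTRL, 10.04, 9.18 and 9.62 in Ifnar1-KO and 9.21, 9.81 and 8.93 in GF. The groups overlapped throughout, and the change of Usp18 was -0.05 ± 0.24 in CTRL (95% interval -0.56 to 0.46), 0.12 ± 0.24 in Ifnar1-KO and -0.05 ± 0.24 in GF.

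Epsti1, first described as a gene induced in epithelium by stroma and known to respond to interferon, had the largest change of the set. Epsti1 read 9.14, 9.11 and 9.24 on the CTRL CCR7- arrays, 8.58, 8.44 and 8.70 on the Ifnar1-KO and 9.26, 8.19 and 8.66 on the GF CCR7- arrays. In CCR7+ cells Epsti1 read 12.20, 12.34 and 12.43 in CTRL, 12.23, 12.13 and 12.25 in Ifnar1-KO and 12.26, 12.16 and 12.08 in GF. The gap between stages was far wider than the spread of any group, with a rise of 3.16 ± 0.18 (8.93-fold, adjusted p 1.27e-08) in CTRL, 3.63 ± 0.18 (12.4-fold) in Ifnar1-KO and 3.46 ± 0.18 (11.0-fold) in GF cells. Rtp4, a chaperone of receptors that interferon induces, rose less. Rtp4 read 4.73, 4.80 and 4.72 on the CTRL CCR7- arrays, 4.29, 4.58 and 4.37 on the Ifnar1-KO and 4.84, 5.39 and 4.93 on the GF CCR7- arrays. In CCR7+ cells Rtp4 read 5.90, 5.44 and 5.64 in CTRL, 6.23, 5.07 and 5.72 in Ifnar1-KO and 6.04, 5.90 and 6.08 in GF. In each background the CCR7+ arrays lay above the CCR7- arrays, with changes of 0.91 ± 0.22, 1.26 ± 0.22 and 0.95 ± 0.22, but GF CCR7- replicate 2 lay above Ifnar1-KO CCR7+ replicate 2.

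Genes of the IFIT family, which bind viral RNA, went different ways although they are neighbours on chromosome 19. Ifit1 read 5.95, 5.502 and 5.70 on the CTRL CCR7- arrays, 5.43, 5.59 and 4.99 on the Ifnar1-KO and 5.74, 5.32 and 5.37 on the GF CCR7- arrays. In CCR7+ cells Ifit1 read 7.71, 6.37 and 7.03 in CTRL, 7.51, 7.31 and 7.59 in Ifnar1-KO and 6.61, 7.20 and 6.99 in GF. CCR7+ arrays were higher without overlap, by 1.32 ± 0.27 in CTRL (adjusted p 0.00167), 2.13 ± 0.27 in Ifnar1-KO and 1.46 ± 0.27 in GF cells. Ifit2 read 8.41, 8.97 and 9.04 on the CTRL CCR7- arrays, 8.89, 7.96 and 9.09 on the Ifnar1-KO and 8.96, 8.23 and 8.70 on the GF CCR7- arrays. In CCR7+ cells Ifit2 read 7.19, 6.49 and 6.97 in CTRL, 8.44, 6.06 and 8.08 in Ifnar1-KO and 6.10, 7.85 and 6.54 in GF. Here CCR7+ arrays were lower in CTRL and GF, while Ifnar1-KO stages overlapped, since replicates 1 and 3 stayed at 8.44 and 8.08. The change of Ifit2 was -1.93 ± 0.55 in CTRL (adjusted p 0.0167) and -1.80 ± 0.55 in GF (0.0283), both called, and -1.12 ± 0.55 in Ifnar1-KO (0.2), not called. The CTRL call of Ifit2 was lost without replicate 2 (adjusted p 0.0552) or 3 (0.0558) of CCR7- cells or replicate 2 of CCR7+ cells (0.0591). The GF call was lost without replicate 1 (0.0967) or 3 (0.0731) of CCR7- cells, or 1 (0.123) or 3 (0.0869) of CCR7+ cells.

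Ifit3 read 5.63, 5.82 and 5.84 on the CTRL CCR7- arrays, 5.31, 5.56 and 5.60 on the Ifnar1-KO and 5.55, 5.60 and 5.16 on the GF CCR7- arrays. In CCR7+ cells Ifit3 read 5.30, 5.001 and 5.78 in CTRL, 5.89, 5.28 and 5.76 in Ifnar1-KO and 5.63, 6.23 and 7.73 in GF. The highest readings of Ifit3 were on GF CCR7+ arrays, with replicate 3 at 7.73 and replicate 2 at 6.23, and GF was the only background in which its stages did not overlap. Its changes were -0.40 ± 0.38, 0.15 ± 0.38 and 1.09 ± 0.38 in CTRL, Ifnar1-KO and GF, none called (adjusted p 0.464, 0.877 and 0.0539). The GF change was 0.49 without GF CCR7+ replicate 3, and 1.54 and called (adjusted p 0.00506) without GF CCR7+ replicate 1. It was also called with an intensity trend (0.0349) and among genes at or above the median level (0.0265). A near-identical neighbour, Ifit3b, exists in the mouse, so the signal of this probe set may not be that of Ifit3 alone.

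Of 10 RNA sensors and RNA-binding effectors, the IFIT genes included, 1 was higher and 3 were lower in CTRL, 4 higher and none lower in Ifnar1-KO, and 1 higher and 2 lower in GF. Of all genes 9.42% to 12.6% were higher and 10.8% to 13.6% lower in the 3 backgrounds. With so few genes these counts are a description only. Dhx58 encodes LGP2, a helper of the sensors RIG-I and MDA5, and Eif2ak2 encodes PKR, a kinase that stops translation on double-stranded RNA. Dhx58 read 7.60, 7.80 and 7.44 on the CTRL CCR7- arrays, 7.62, 7.23 and 7.65 on the Ifnar1-KO and 7.51, 7.58 and 7.54 on the GF CCR7- arrays. In CCR7+ cells Dhx58 read 6.18, 6.10 and 5.79 in CTRL, 7.35, 5.52 and 6.77 in Ifnar1-KO and 5.87, 6.42 and 5.76 in GF. Dhx58 was lower without overlap in CTRL and GF, with changes of -1.59 ± 0.33 and -1.53 ± 0.33, both called, and overlapped between stages in Ifnar1-KO at -0.95 ± 0.33 (adjusted p 0.0524). Eif2ak2 read 8.52, 8.81 and 8.97 on the CTRL CCR7- arrays, 8.72, 7.82 and 8.62 on the Ifnar1-KO and 8.58, 7.52 and 7.59 on the GF CCR7- arrays. In CCR7+ cells Eif2ak2 read 7.48, 7.06 and 7.18 in CTRL, 7.99, 6.04 and 7.53 in Ifnar1-KO and 7.45, 6.20 and 6.93 in GF. The spread of Eif2ak2 was wide, with Ifnar1-KO CCR7+ replicate 2 at 6.04. Its fall of 1.53 ± 0.45 in CTRL was called (adjusted p 0.0191), while -1.20 ± 0.45 in Ifnar1-KO and -1.04 ± 0.45 in GF were not. That call was lost without CTRL replicate 2 (adjusted p 0.0542) or 3 (0.0628) of CCR7- cells, or 2 (0.0561) or 3 (0.0572) of CCR7+ cells.

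The sensor genes Ddx58 (RIG-I) and Ifih1 (MDA5) changed by 0.56 ± 0.25 and -0.16 ± 0.26 in CTRL, neither called. Ddx58 was called in Ifnar1-KO cells (0.90 ± 0.25, adjusted p 0.0194), as were Zbp1, a sensor of Z-form nucleic acid, at 0.74 ± 0.18 and Adar, which edits double-stranded RNA, at 0.68 ± 0.23 (adjusted p 0.0479). None of these 3 was called in CTRL or GF, but Zbp1 at 0.52 ± 0.18 in CTRL lay near the threshold (adjusted p 0.051) and was called there under 11 of the alternatives, for example without Ifnar1-KO CCR7+ replicate 1 (0.0180). With only the groups compared in the fit, Zbp1 lost its Ifnar1-KO call (0.0746) and was called in CTRL (0.0299), where Adar was also called (0.0159). Ddx58 (0.0816) and Adar (0.250) lost their Ifnar1-KO call in that setting too. The Ddx58 call was lost without Ifnar1-KO CCR7- replicate 2 (adjusted p 0.0895) or Ifnar1-KO CCR7+ replicate 1 (0.106), and the Adar call without most single arrays, with adjusted p up to 0.209 without Ifnar1-KO CCR7- replicate 2.

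In the OAS family, whose enzymes trigger RNA decay when they meet double-stranded RNA, the OAS-like genes Oasl1 and Oasl2 rose in all 3 backgrounds. Oasl2 read 5.80, 5.93 and 5.96 on the CTRL CCR7- arrays, 5.93, 5.40 and 5.95 on the Ifnar1-KO and 6.07, 5.92 and 5.85 on the GF CCR7- arrays. In CCR7+ cells Oasl2 read 7.60, 6.65 and 6.94 in CTRL, 7.39, 6.44 and 7.11 in Ifnar1-KO and 7.09, 7.13 and 6.68 in GF. CCR7+ arrays of Oasl2 lay above all CCR7- arrays, by 1.17 ± 0.25, 1.22 ± 0.25 and 1.02 ± 0.25 in CTRL, Ifnar1-KO and GF. Oasl1 rose by 0.80 ± 0.19, 0.96 ± 0.19 and 1.07 ± 0.19. Oas3 read 5.99, 6.19 and 6.26 on the CTRL CCR7- arrays, 5.62, 5.59 and 5.57 on the Ifnar1-KO and 6.58, 6.22 and 6.22 on the GF CCR7- arrays. In CCR7+ cells Oas3 read 6.93, 6.08 and 6.50 in CTRL, 7.15, 6.35 and 6.82 in Ifnar1-KO and 6.89, 6.65 and 6.57 in GF. The stages of Oas3 did not overlap in Ifnar1-KO (1.18 ± 0.21, adjusted p 6.00e-04) and overlapped in CTRL (0.36 ± 0.21) and GF (0.36 ± 0.21), where it was not called. Oas2 and Oas1a were not called in any background, although Oas1a was called in GF under 2 alternatives and Oas2 in Ifnar1-KO under 1.

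The DNA-binding PYHIN genes Ifi203 and Ifi205, from a cluster on chromosome 1 whose human relatives include AIM2 and IFI16, fell most. Ifi205 read 11.95, 12.10 and 12.05 on the CTRL CCR7- arrays, 11.90, 11.94 and 11.99 on the Ifnar1-KO and 11.99, 11.81 and 11.89 on the GF CCR7- arrays. In CCR7+ cells Ifi205 read 8.99, 8.93 and 9.15 in CTRL, 10.34, 9.06 and 10.27 in Ifnar1-KO and 9.05, 9.88 and 8.77 in GF. Levels of Ifi205 in CCR7- cells were alike on all 9 arrays and fell in CCR7+ cells by 3.01 ± 0.29 in CTRL (8.07-fold, adjusted p 1.79e-06). Ifi205 changed by -2.06 ± 0.29 in Ifnar1-KO and -2.67 ± 0.29 in GF cells, and Ifnar1-KO CCR7+ replicates 1 and 3 stayed above the CTRL CCR7+ arrays. Ifi203 read 9.96, 10.40 and 10.29 on the CTRL CCR7- arrays, 10.72, 10.04 and 10.50 on the Ifnar1-KO and 10.45, 10.09 and 10.09 on the GF CCR7- arrays. In CCR7+ cells Ifi203 read 7.62, 7.52 and 7.30 in CTRL, 8.51, 7.46 and 8.60 in Ifnar1-KO and 8.07, 8.10 and 7.30 in GF. Ifi203 followed with -2.74 ± 0.28, -2.23 ± 0.28 and -2.39 ± 0.28, again with no overlap of stages. Members of this cluster are similar in sequence, so signal may be shared between them.

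Of 4 Schlafen genes on chromosome 11, a family that restrains growth of lymphoid cells or limits translation, 3 fell in every background (10.8% to 13.6% of all genes were lower). Slfn8 read 7.94, 7.96 and 7.96 on the CTRL CCR7- arrays, 7.74, 7.29 and 8.07 on the Ifnar1-KO and 8.03, 7.23 and 7.74 on the GF CCR7- arrays. In CCR7+ cells Slfn8 read 5.94, 5.32 and 5.44 in CTRL, 6.32, 4.55 and 6.36 in Ifnar1-KO and 5.77, 5.98 and 5.64 in GF. Slfn8 lay lower on all CCR7+ arrays, with a change of -2.38 ± 0.38 in CTRL (adjusted p 2.20e-04), -1.96 ± 0.38 in Ifnar1-KO and -1.87 ± 0.38 in GF. Slfn1 changed by -1.49 ± 0.28, -1.53 ± 0.28 and -1.23 ± 0.28 and Slfn2 by -1.12 ± 0.16, -0.65 ± 0.16 and -1.16 ± 0.16, all called. The Slfn2 call in Ifnar1-KO was lost when both Ifnar1-KO replicate 2 arrays were left out (-0.49, adjusted p 0.124). Slfn5 had changes of -0.999 ± 0.41, -1.005 ± 0.41 and -0.94 ± 0.41, none called, while the replicate block called it in CTRL and Ifnar1-KO, as given above.

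At the cell surface and in membranes, Ly6e fell and Ifitm2 rose. LY6E is a lipid-anchored protein that limits entry of coronaviruses, and IFITM proteins block fusion of viruses with endosomes. Ly6e read 12.87, 12.80 and 12.80 on the CTRL CCR7- arrays, 12.76, 12.91 and 12.81 on the Ifnar1-KO and 12.90, 12.85 and 12.74 on the GF CCR7- arrays. In CCR7+ cells Ly6e read 11.17, 10.69 and 11.19 in CTRL, 11.93, 11.71 and 11.87 in Ifnar1-KO and 11.22, 11.87 and 11.19 in GF. Levels of Ly6e in CCR7- cells were close together on all 9 arrays, and fell in CCR7+ cells by 1.81 ± 0.16 in CTRL, 0.99 ± 0.16 in Ifnar1-KO and 1.41 ± 0.16 in GF. Ifitm2 read 7.70, 8.03 and 7.54 on the CTRL CCR7- arrays, 7.23, 7.82 and 7.22 on the Ifnar1-KO and 8.19, 7.64 and 7.61 on the GF CCR7- arrays. In CCR7+ cells Ifitm2 read 9.23, 9.45 and 9.44 in CTRL, 9.58, 9.65 and 9.58 in Ifnar1-KO and 9.21, 9.82 and 9.74 in GF. Ifitm2 rose by 1.62 ± 0.20, 2.18 ± 0.20 and 1.78 ± 0.20 without overlap. Its 2 other probe sets gave 1.35 and 1.80 in CTRL, 1.62 and 2.55 in Ifnar1-KO, and 1.25 and 2.11 in GF. Ifitm1, Ifitm3 and Bst2 (tetherin) were not called in any background, although Bst2 was called in Ifnar1-KO under 7 alternatives and in CTRL and GF under 1 each. Ifitm genes are close relatives, so signal may be shared.

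Among cytosolic effectors, Rsad2 (viperin), which makes a chain-terminating nucleotide, rose. Rsad2 read 6.32, 6.83 and 6.76 on the CTRL CCR7- arrays, 6.38, 6.82 and 6.72 on the Ifnar1-KO and 6.97, 6.66 and 6.15 on the GF CCR7- arrays. In CCR7+ cells Rsad2 read 7.48, 7.86 and 7.83 in CTRL, 8.50, 7.74 and 8.07 in Ifnar1-KO and 7.97, 8.18 and 7.51 in GF. No stages overlapped, and the rise of Rsad2 was 1.09 ± 0.24 in CTRL (2.12-fold, adjusted p 0.00338), 1.46 ± 0.24 in Ifnar1-KO and 1.29 ± 0.24 in GF. Cmpk2 read 4.04, 4.05 and 4.11 on the CTRL CCR7- arrays, 4.03, 4.28 and 4.04 on the Ifnar1-KO and 3.998, 4.52 and 4.79 on the GF CCR7- arrays. In CCR7+ cells Cmpk2 read 3.82, 3.90 and 3.84 in CTRL, 3.96, 3.74 and 3.83 in Ifnar1-KO and 3.66, 3.89 and 3.67 in GF. This neighbour of Rsad2 was lower on every CCR7+ than on every CCR7- array and was called in GF (-0.70 ± 0.15), while its changes of -0.21 ± 0.15 in CTRL and -0.28 ± 0.15 in Ifnar1-KO were not called. All readings of Cmpk2 but that of GF CCR7- replicate 3 lay below the median of all genes on their array (4.62 to 4.75). At such low intensity a change is hard to read. With only the groups compared in the fit, Cmpk2 was called in CTRL (adjusted p 0.0464) and not in GF (0.0763). The cytidine deaminase Apobec3 rose by 0.60 ± 0.14, 0.66 ± 0.14 and 0.60 ± 0.14. Its other probe set gave 0.83, 0.12 and 1.10, and with the mean of both, Apobec3 was called in no background.

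Samd9l read 10.31, 10.29 and 10.46 on the CTRL CCR7- arrays, 10.48, 10.07 and 10.45 on the Ifnar1-KO and 10.25, 10.51 and 9.96 on the GF CCR7- arrays. In CCR7+ cells Samd9l read 9.56, 8.28 and 8.54 in CTRL, 9.59, 8.80 and 9.29 in Ifnar1-KO and 9.25, 8.47 and 8.92 in GF. Samd9l, which limits poxviruses and cell growth, fell without overlap by 1.56 ± 0.29 in CTRL, 1.11 ± 0.29 in Ifnar1-KO and 1.37 ± 0.29 in GF. The Ifnar1-KO call of Samd9l was lost without Ifnar1-KO CCR7+ replicate 2 (-0.89, adjusted p 0.0647) or without both replicate 2 arrays (-1.02, adjusted p 0.0551). Isg20 read 8.13, 8.24 and 8.01 on the CTRL CCR7- arrays, 8.13, 8.11 and 8.38 on the Ifnar1-KO and 8.56, 8.07 and 8.17 on the GF CCR7- arrays. In CCR7+ cells Isg20 read 6.97, 6.86 and 6.65 in CTRL, 7.82, 7.81 and 7.34 in Ifnar1-KO and 7.13, 7.67 and 6.99 in GF. The exonuclease gene Isg20 was lower on all CCR7+ arrays, with a change of -1.30 ± 0.18 in CTRL, -1.01 ± 0.18 in GF and -0.55 ± 0.18 in Ifnar1-KO, where its adjusted p of 0.0453 passed narrowly. It was lost there without most single arrays, with adjusted p up to 0.206 without Ifnar1-KO CCR7+ replicate 3.

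Mx1 read 6.79, 7.67 and 7.76 on the CTRL CCR7- arrays, 7.23, 5.70 and 6.77 on the Ifnar1-KO and 6.95, 5.52 and 5.88 on the GF CCR7- arrays. In CCR7+ cells Mx1 read 7.36, 8.05 and 7.83 in CTRL, 8.61, 5.46 and 7.61 in Ifnar1-KO and 7.65, 6.31 and 6.99 in GF. Mx1, the influenza restriction factor that is defective in B6 and most other laboratory strains, varied widely between arrays of a group, and its changes of 0.34 ± 0.66, 0.66 ± 0.66 and 0.87 ± 0.66 were not called. Ifnar1-KO CCR7+ replicates 1 and 2 held the highest and the lowest Mx1 reading of all arrays.

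**Figure D3:**
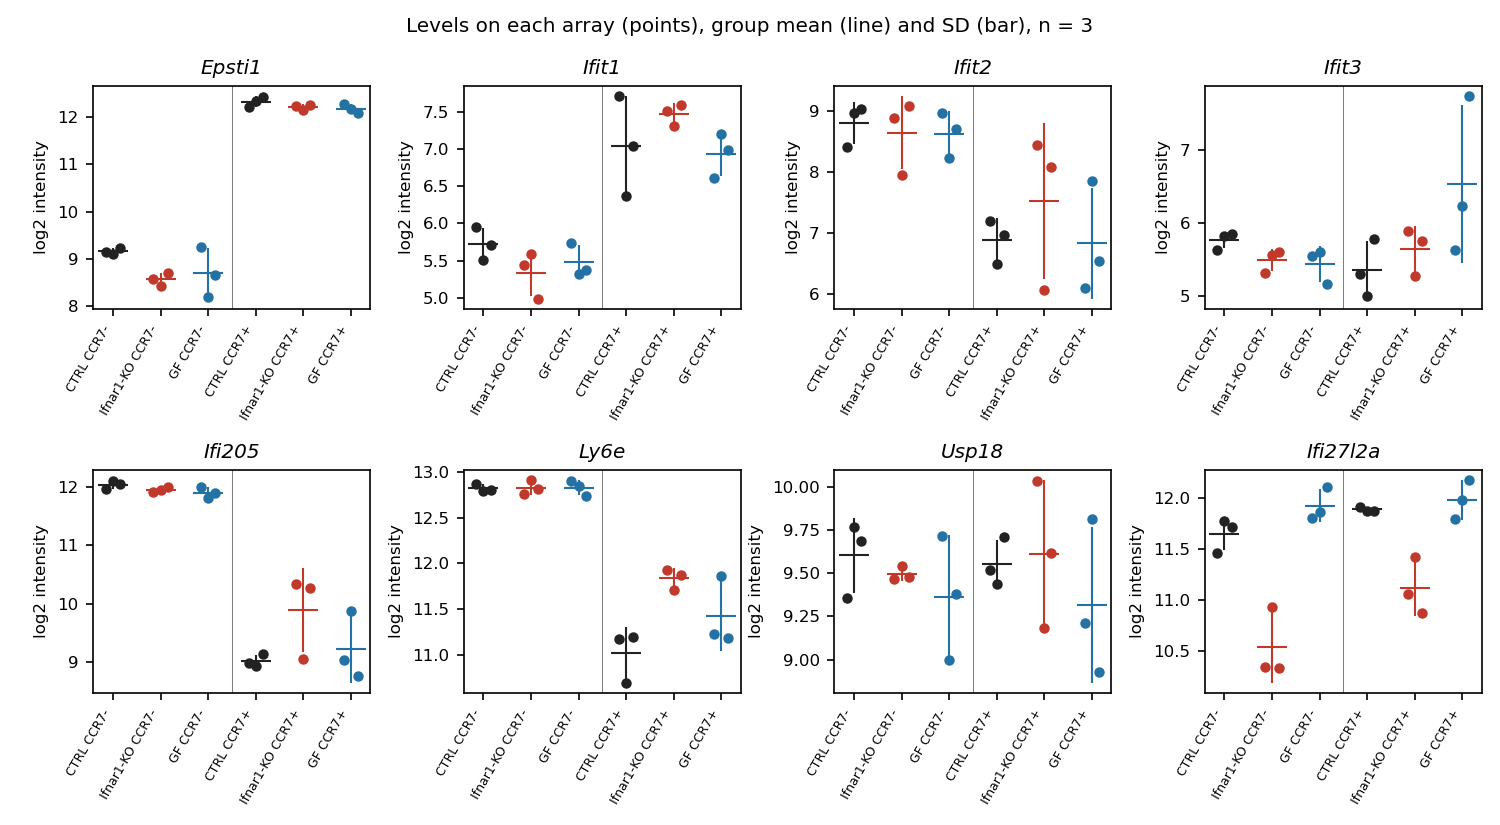
Points are log2 intensities on each array for 8 genes, with CCR7- groups on the left of each panel and CCR7+ groups on the right; lines and bars are group means and SD (n = 3), and each panel has its own scale. Epsti1 and Ifit1 rose and Ifi205 and Ly6e fell without overlap, Usp18 overlapped throughout, Ifit3 was high on 1 GF CCR7+ array, and Ifi27l2a was low in Ifnar1-KO cells of both stages.

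Of 8 ADP-ribosyl or ubiquitin ligases and helicases, 1 was higher and 2 were lower in CTRL, and of 3 nuclear body proteins 2 were lower. Of all genes 12.6% were higher and 13.6% lower there. Dtx3l, the ubiquitin ligase partner of PARP9, rose by 0.37 ± 0.10, 0.49 ± 0.10 and 0.38 ± 0.10, and Parp12, which adds ADP-ribose, fell by 0.94 ± 0.18, 0.84 ± 0.18 and 0.98 ± 0.18. The nuclear body protein Sp100 fell by 1.06 ± 0.24, 0.90 ± 0.24 and 0.88 ± 0.24. Its call was lost in Ifnar1-KO without Ifnar1-KO CCR7- replicate 1 (adjusted p 0.0522), CCR7- replicate 3 (0.0545) or CCR7+ replicate 2 (0.0533), and in GF without GF CCR7- replicate 1 (0.0842) or CCR7+ replicate 3 (0.0666). Dtx3l was lost in CTRL without CTRL CCR7+ replicate 1 (0.0534), in GF without GF CCR7- replicate 2 (0.0575), and in both with an intensity trend (0.0680 and 0.0747). The GF call of Dtx3l was also lost with only the groups compared in the fit (0.0954). Pml, the scaffold of nuclear bodies, was called in CTRL (-0.65 ± 0.19) and Ifnar1-KO (-0.62 ± 0.19), and at -0.53 ± 0.19 in GF it missed the threshold (adjusted p 0.0549) and was called under 10 of the alternatives. Trim21, an antibody receptor and ligase, was called in CTRL (-0.68 ± 0.20) and GF (-0.73 ± 0.20), and under 6 alternatives also in Ifnar1-KO (-0.59 ± 0.20, adjusted p 0.0537). Lgals3bp, a secreted glycoprotein, was called in CTRL alone (-1.22 ± 0.27, against -0.43 ± 0.27 in Ifnar1-KO and -0.75 ± 0.27 in GF), and Tor3a, an ATPase of the endoplasmic reticulum, in GF alone (-0.60 ± 0.19). Under 5 alternatives each, Lgals3bp was also called in GF and Tor3a also in CTRL.

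Called in Ifnar1-KO alone were also Parp9 (0.56 ± 0.16), Daxx, a histone chaperone (0.53 ± 0.17), and Ifi27l2a (0.58 ± 0.17), though Parp9 was called in CTRL under 5 alternatives. Among these calls that of Lgals3bp was kept without any single array. Pml was lost in CTRL without CCR7+ replicate 2 (adjusted p 0.0744) or 3 (0.0587), and in Ifnar1-KO without CCR7- replicate 3 (0.126) or CCR7+ replicate 2 (0.127). Trim21 was lost in CTRL without CCR7- replicate 1 (0.0685) or 3 (0.0544) or CCR7+ replicate 1 (0.0711), and in GF without CCR7- replicate 3 (0.0514) or CCR7+ replicate 1 (0.0856) or 3 (0.0793). Tor3a was lost without GF CCR7- replicate 1 (0.154) or 2 (0.0760) or CCR7+ replicate 1 (0.0737) or 3 (0.132). Parp9 was lost without Ifnar1-KO CCR7- replicate 2 (0.0861) or CCR7+ replicate 1 (0.0940) or 3 (0.0713), and Ifi27l2a without CCR7- replicate 1 (0.0972) or 3 (0.102) or CCR7+ replicate 2 (0.109). Daxx was lost without most single arrays, with adjusted p up to 0.184 without Ifnar1-KO CCR7+ replicate 1. Fitted on only the groups compared, Parp9 (adjusted p 0.145), Daxx (0.196), Ifi27l2a (0.153) and Pml (0.133) lost their Ifnar1-KO call. Trim21 lost its GF call in that setting (0.130). Calls in 1 background and not in another do not show that the changes differ, which the next comparison tests.

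The question of whether maturation depends on type I interferon was put to each gene as a difference, the change in Ifnar1-KO minus the change in CTRL. No interferon stimulated gene was called, and none of all 19938 genes (0%). At an unadjusted p under 0.05 there were 5 of the 56 genes and 901 of all (4.52%). The smallest p-values belonged to Ly6e at 0.81 ± 0.23, Oas3 at 0.82 ± 0.29 and Isg20 at 0.75 ± 0.26, each with an adjusted p of 0.958. For Ly6e and Isg20 this is a smaller fall and for Oas3 a larger rise in Ifnar1-KO than in CTRL. The 95% interval of the difference lay within 1 on either side of 0 for 26 of the 56 genes, against 84.0% of all genes, and for the other genes it reached a doubling or more. For Epsti1 the interval was -0.07 to 1.02, for Ifit1 0.00 to 1.62, for Rsad2 -0.35 to 1.11 and for Usp18 -0.55 to 0.88.

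As a description, 48 of the 56 differences were above 0 (85.7%), against 42.8% of all genes, and their median was 0.32 against -0.03. Among genes at or above the median level, the median of the set was 0.32, against 0.07 over all such genes. Without both Ifnar1-KO replicate 2 arrays 54 of the 56 were above 0 and their median was 0.42. The size rested on single arrays: without Ifnar1-KO CCR7+ replicate 1 there were 35 above 0 with a median of 0.10, without CCR7+ replicate 2 there were 53 with 0.53, and without CCR7- replicate 2 there were 46 with 0.18. The genes share arrays and are not independent, so this count carries no test. Ifnar1-KO CCR7+ replicate 1 lay above the mean of its group for 52 of the 56 genes, with a median deviation of 0.32, and replicate 2 for 5, with -0.41. Over all genes those median deviations were -0.02 and 0.03. On replicate 2 the thymocyte marker mean was 7.66, and the XCR1+ DC marker mean was 8.31, 7.36 and 8.65 on Ifnar1-KO CCR7+ replicates 1, 2 and 3 against 7.69 to 7.84 on CTRL CCR7+ arrays. The part of these markers in the difference was not tested.

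For germ-free housing the same difference, GF minus CTRL, was also called for no gene of the set and for no gene at all (0%). At an unadjusted p under 0.05 there were 2 of the 56, and 660 of all genes (3.31%). The smallest p-values were those of Ifit3 at 1.496 ± 0.54, Cmpk2 at -0.48 ± 0.21 and Ly6e at 0.40 ± 0.23, all with an adjusted p of 0.999. The median of the set was 0.03, against -0.02 over all genes, and 37 of 56 intervals lay within 1 on either side of 0, against 84.7% of all genes. Among genes at or above the median level, the median of the set was 0.05, against 0.03 over all such genes. Without GF CCR7+ replicate 3 the difference of Ifit3 was 0.90. Both differences use the same CTRL arrays, so the values of Ly6e in them are not independent.

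Loss of the receptor chain was then compared within each stage. The Ifnar1 probe set itself read 7.27 to 8.07 on Ifnar1-KO and 8.06 to 8.09 on CTRL CCR7- arrays, and 6.07 to 7.61 and 7.61 to 7.82 on CCR7+ arrays. Where its probes lie in the transcript is not stated, so this reading does not check the genotype. Without direction, the median size of the Ifnar1-KO minus CTRL difference over the 56 genes was 0.15 in each stage, against 0.11 in CCR7- and 0.08 in CCR7+ cells over all genes. In CCR7- cells none of the 56 was called, as none of all genes was (0%), with 7 of 56 and 1401 of all (7.03%) at an unadjusted p under 0.05. In CCR7+ cells none was called either, beside 3 of all genes (0.015%), with 8 of 56 and 582 of all (2.92%) at an unadjusted p under 0.05. The median difference of the set was -0.11 in CCR7- and 0.10 in CCR7+ cells, against 0.04 and 0.00 over all genes. Among genes at or above the median level, the set had -0.11 and 0.12, against -0.05 and 0.00 over all such genes. Single arrays moved the medians of the 56 genes: in CCR7- cells the value was -0.18 without CTRL replicate 1, -0.07 without CTRL replicate 2, and -0.18, -0.04 and -0.19 without Ifnar1-KO replicates 1, 2 and 3. In CCR7+ cells it turned to -0.06 without Ifnar1-KO replicate 1, with 26 of 56 genes above 0. It was 0.35 without Ifnar1-KO replicate 2 and 0.05 without replicate 3, and 0.16 and 0.04 without CTRL replicates 1 and 2. The 95% interval lay within 1 of 0 for 43 of the 56 genes in CCR7- and 39 in CCR7+ cells, against 93.3% and 94.9% of all genes.

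**Figure D4:**
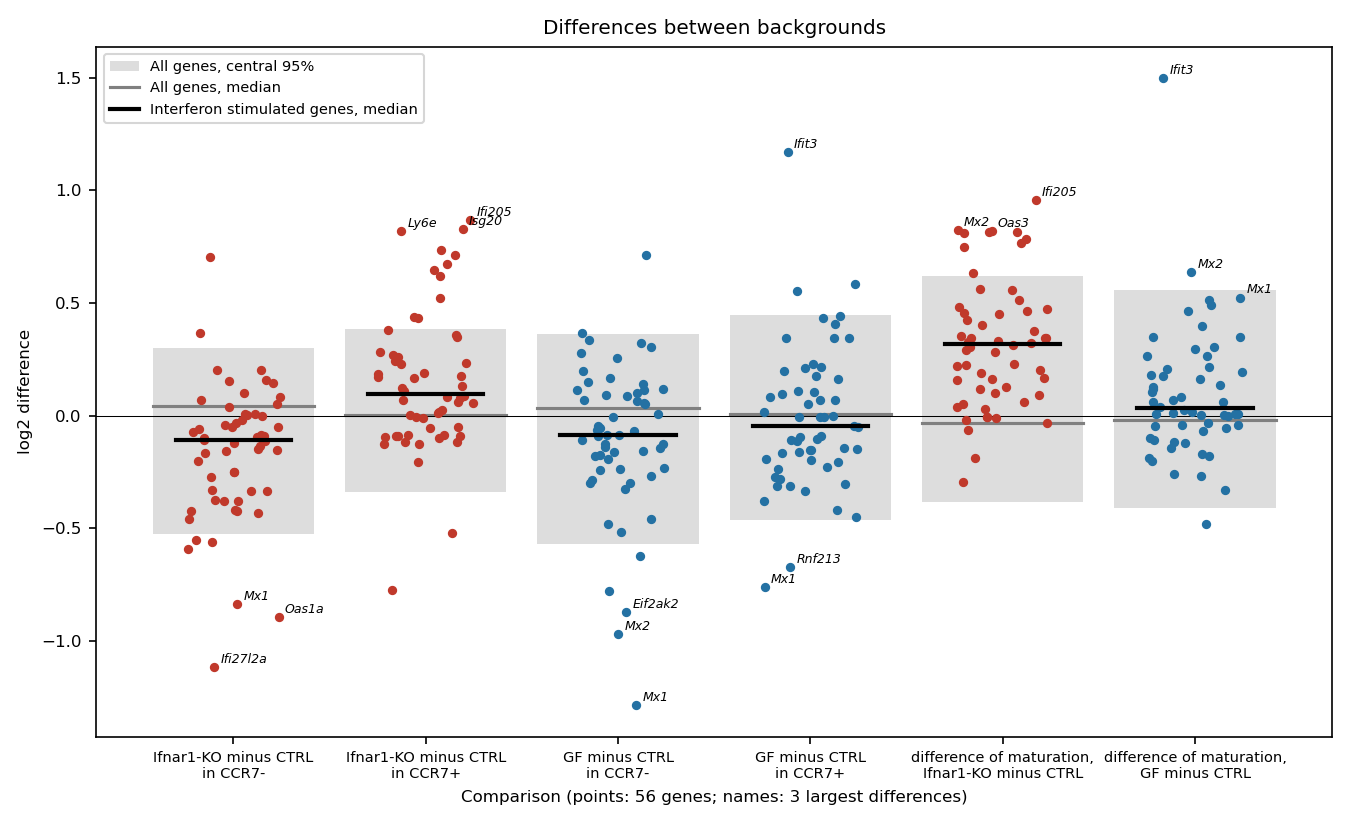
Points are the log2 differences of the 56 genes for each comparison between backgrounds, with black lines at their median, grey bands over the central 95% of all 19938 genes and grey lines at the median of all genes; the last 2 columns are differences of maturation changes. The black line lies above the grey line for the difference of maturation in Ifnar1-KO (0.32 against -0.03), and Ifi27l2a is the lowest point of the first 2 columns (-1.12 and -0.77).

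The smallest p-values in CCR7- cells belonged to Ifi27l2a, Epsti1 and Oas1a. Ifi27l2a encodes a small protein that interferon induces strongly in mice, whose human relative IFI27 is a standard blood marker of the type I response. Ifi27l2a read 11.47, 11.77 and 11.71 on the CTRL CCR7- arrays, 10.34, 10.93 and 10.33 on the Ifnar1-KO and 11.81, 11.87 and 12.11 on the GF CCR7- arrays. In CCR7+ cells Ifi27l2a read 11.92, 11.88 and 11.88 in CTRL, 11.06, 11.42 and 10.88 in Ifnar1-KO and 11.79, 11.98 and 12.18 in GF. Every Ifnar1-KO array was lower than every CTRL array of its stage, while GF arrays were above CTRL arrays in CCR7- cells and overlapped them in CCR7+ cells. The difference was -1.12 ± 0.17 in CCR7- cells (95% interval -1.48 to -0.76, adjusted p 0.0665) and -0.77 ± 0.17 in CCR7+ cells (interval -1.13 to -0.41, adjusted p 0.715), neither called. It was called in CCR7- cells without Ifnar1-KO CCR7- replicate 2 (-1.32, adjusted p 0.0149) or Ifnar1-KO CCR7+ replicate 3 (-1.12, adjusted p 0.0471). Averaged over both stages, with arrays of 1 background and replicate number as a random block, a comparison added after seeing the data, it was -0.94 ± 0.12 (1.92-fold lower, adjusted p 0.0107). It was then the only one of the 56 genes called, beside 3 of all genes (0.015%), and 10 of 56 had an unadjusted p under 0.05, beside 3.54% of all genes. Without CTRL CCR7- replicate 2 or 3 the adjusted p was 0.0510 or 0.0511, and 0.0866 with only the groups compared in the fit. Ifi27l2a was also the only member whose Ifnar1-KO arrays lay below the CTRL arrays in both stages (0.135% of all genes), and Slfn2 the only one above in both (0.331%).

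The other genes with small p-values in CCR7- cells differed by -0.59 ± 0.18 for Epsti1 (adjusted p 0.681) and -0.89 ± 0.30 for Oas1a (0.681). Oas1a read 8.04, 8.04 and 8.87 on the CTRL CCR7- arrays, 7.51, 7.497 and 7.27 on the Ifnar1-KO and 8.57, 8.51 and 8.63 on the GF CCR7- arrays. In CCR7+ cells Oas1a read 8.18, 7.06 and 8.01 in CTRL, 8.04, 7.14 and 7.70 in Ifnar1-KO and 7.62, 8.22 and 7.58 in GF. Every Ifnar1-KO array of Oas1a lay below every CTRL array in CCR7- cells, while the groups overlapped in CCR7+ cells (-0.13 ± 0.30). In CCR7+ cells the smallest p-values were those of Ly6e at 0.82 ± 0.16 (adjusted p 0.465), Ifi27l2a and Isg20 at 0.83 ± 0.18 (0.715). The CCR7+ arrays of Ly6e and Isg20, given above, did not overlap between Ifnar1-KO and CTRL, while the CCR7- arrays of both genes did. Without GF CCR7+ replicate 2, which enters this comparison only through the pooled spread, Ly6e was called (0.82, adjusted p 0.0284). In the comparisons between backgrounds, genes given array by array were chosen for their small p-values. Arrays without overlap are therefore no separate support for a difference.

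Germ-free housing was compared with CTRL in the same way, and no gene of the set was called in either stage, beside 3 of all genes in CCR7- (0.015%) and 6 in CCR7+ cells (0.0301%). At an unadjusted p under 0.05 there were 4 of 56 in each stage, beside 6.32% and 5.86% of all genes. The median difference of the set was -0.09 in CCR7- and -0.05 in CCR7+ cells, against 0.03 and 0.01. Among genes at or above the median level, the set had -0.09 and -0.03, against -0.02 and -0.01 over all such genes. In CCR7- cells the median of the 56 genes was -0.19 without GF replicate 1, -0.02 without GF replicate 2 and -0.05 without GF replicate 3. In CCR7+ cells it turned to 0.06 without CTRL replicate 1 and was -0.14 without CTRL replicate 2, -0.10 without GF replicate 2 and close to 0 without GF replicate 1 or 3. A final r, unexplained, stands in the array codes of all 6 GF and of 2 of 6 CTRL arrays. With this r as covariate the medians were 0.0009 in CCR7- and 0.06 in CCR7+ cells. Then 28 and 34 of the 56 genes were above 0, against 22 and 23 in the main fit. In CCR7- cells the smallest p-values were those of Ifitm3 at 0.71 ± 0.27, Epsti1 at -0.46 ± 0.18 and Ifi35 at 0.34 ± 0.14, each with an adjusted p of 0.766. Ifitm3 read 9.03, 9.60 and 9.27 on the CTRL CCR7- arrays, 9.10, 9.39 and 9.25 on the Ifnar1-KO and 9.98, 10.18 and 9.87 on the GF CCR7- arrays. In CCR7+ cells Ifitm3 read 9.76, 8.68 and 9.15 in CTRL, 9.65, 9.54 and 9.45 in Ifnar1-KO and 8.98, 9.81 and 10.13 in GF. The GF CCR7- arrays of Ifitm3 lay above the CTRL CCR7- arrays, while those groups overlapped in CCR7+ cells.

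In CCR7+ cells they were those of Ifit3 at 1.17 ± 0.38 (adjusted p 0.675; 0.57 without GF CCR7+ replicate 3), Ly6e at 0.41 ± 0.16 (0.778) and Ifi35 at 0.34 ± 0.14 (0.782). Ifi35 read 8.64, 8.62 and 8.54 on the CTRL CCR7- arrays, 8.57, 8.98 and 8.71 on the Ifnar1-KO and 8.89, 8.87 and 9.05 on the GF CCR7- arrays. In CCR7+ cells Ifi35 read 8.41, 8.52 and 8.47 in CTRL, 8.84, 8.43 and 8.71 in Ifnar1-KO and 8.92, 9.02 and 8.50 in GF. Ifi35, a partner of the protein NMI, was higher in GF by group mean in both stages, without overlap in CCR7- and with overlap in CCR7+ cells. Averaged over both stages, again a comparison added after seeing the data, none of the 56 was called, beside 5 of all genes (0.0251%), and 7 of 56 had an unadjusted p under 0.05, beside 7.70% of all genes. The smallest p-values were those of Ifi35, Oas2 and Ifitm3. Oas2 read 4.26, 4.60 and 4.40 on the CTRL CCR7- arrays, 4.30, 3.85 and 3.86 on the Ifnar1-KO and 4.16, 4.20 and 4.02 on the GF CCR7- arrays. In CCR7+ cells Oas2 read 4.43, 4.33 and 4.44 in CTRL, 4.56, 4.03 and 4.26 in Ifnar1-KO and 4.27, 4.13 and 3.97 in GF. Slfn1 lay above CTRL on all GF arrays of both stages, as for 0.863% of all genes, and Oas2 below, as for 0.717%. Every reading of Oas2 lay below the median of all genes on its array (4.62 to 4.75), where a difference is hard to read. Without GF CCR7- replicate 1, Cmpk2 (0.59, adjusted p 0.0498) and Epsti1 (-0.74, adjusted p 0.0302) were called in CCR7- cells. The mature DC marker mean was 7.995 on that array, against 6.77 and 7.07 on GF CCR7- replicates 2 and 3, and its part here was not tested.

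Of other genes of the pathway 42 were measured. In CTRL 5 were higher and 8 lower (31.0%, beside 26.2% of all genes), in Ifnar1-KO 5 and 5 (23.8%, beside 20.2%), and in GF 5 and 8 (31.0%, beside 21.3%). Of 14 interferon genes, 1 was called in CTRL, Ifnz at 0.50 ± 0.14, and none in Ifnar1-KO or GF. Ifnb1, which encodes interferon beta, read 3.22 to 3.52 on all 18 arrays and was not called in any background. These readings lay below the median of all genes on each array (4.62 to 4.75), where a change may go unseen. Of 6 genes of the receptor and its signalling chain only Tyk2 was called, at 1.01 ± 0.25 in CTRL and 0.92 ± 0.25 in GF, against 0.67 ± 0.25 in Ifnar1-KO. Ifnar2, Stat2 and Irf9 were not called in any background.

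Of the factors, Irf1, which interferon gamma and NF-kB induce, rose by 3.17 ± 0.25 in CTRL, 3.65 ± 0.25 in Ifnar1-KO and 3.83 ± 0.25 in GF. Irf7, the factor that amplifies interferon alpha production, fell by 1.38 ± 0.25 in CTRL and 1.17 ± 0.25 in GF, and its change of -0.69 ± 0.25 in Ifnar1-KO was not called (adjusted p 0.0722). Of 8 sensors and adaptors, 5 were lower and 1 higher in CTRL, beside 13.6% and 12.6% of all genes. The endosomal sensor of double-stranded RNA Tlr3 changed by -5.20 ± 0.22 in CTRL, from 9.47 to 9.70 among the CCR7- arrays down to between 4.07 and 4.90 among the CCR7+ arrays. Those low readings lay about the median of all genes on the CTRL CCR7+ arrays (4.65 to 4.75), so the fall may be understated. Changes in CTRL were -1.69 ± 0.22 for the adaptor Myd88, -0.60 ± 0.14 for the DNA sensor Tlr9 and -0.55 ± 0.17 for the adaptor Mavs, while Samhd1, which depletes nucleotides, rose by 0.75 ± 0.10. Among receptors of other interferons, Ifngr1 changed by -2.85 ± 0.24 and Ifnlr1 by -1.08 ± 0.23 in CTRL, with -2.40 ± 0.24 and -1.22 ± 0.23 in Ifnar1-KO. Of 4 brakes on the response 1 was called in CTRL, Pias1 at 0.74 ± 0.12 (26.2% of all genes were called). For none of the pathway genes was the difference of maturation between backgrounds called.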

How the data were processed

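Per the labels' protocols, RNA of sorted cells (0.7 to 7.3 ng) was amplified with NuGEN kits and hybridised to Affymetrix arrays. Per the submitters' processing notes the authors used RMA in oligo, and the deposited values are log2 intensities. Neither tool versions nor the set of arrays normalised jointly is stated. The table held 35556 probe sets; 21789 with 1 gene symbol in GEO's platform annotation gave 19938 genes (highest mean probe set per gene). No column was unmapped and no gene was filtered by level. In the CTRL replicate 2 pair the letters of the array codes run opposite to the other pairs, and the labelled stage was kept. A final r, unexplained, stands in the code of 2 CTRL, 4 Ifnar1-KO and 6 GF arrays.

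Models were fitted with limma 3.58.1 (R 4.3.3, statmod 1.5.0) on all 18 arrays, with 1 mean per group and 12 residual degrees of freedom, and p was adjusted within each comparison over all genes. Arrays have no read depth, and their number limits the precision. The members, gene lists and tests were chosen with earlier results of these data known. Values on every array were given for standard signature genes, for the 8 largest called rises and falls in CTRL maturation, and for the called genes, or else the 3 smallest p-values, of each comparison between backgrounds or of maturation changes; others are given by change, count or range. The fit was tested on simulated data with known changes and independent noise, of equal spread in all groups for each gene. That test does not cover the unequal group spread or the joint deviations of arrays seen here.

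Replicate numbers were checked as pairs by correlating deviations from group means across stages. They were 0.188, 0.147 and 0.100 in CTRL and 0.284, 0.321 and 0.236 in Ifnar1-KO, all above 0.1, and 0.267, 0.00354 and 0.0296 in GF. The fit without a block was kept. Other settings tried were array weights, an intensity trend, median-centred arrays, a filter at the median level, averaged probe sets, a fit on the compared groups only, a block by replicate, the final r as covariate, and single arrays left out. Leaving out both Ifnar1-KO replicate 2 arrays, and averaging over stages (block correlation 0.149), were chosen after seeing the data. Promoters and gene positions came from RefSeq (GRCm38.p6). Python 3.11.15, pandas 2.3.3, numpy 2.4.6 and matplotlib 3.10.9 were also used.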

Additional observations from a re-analysis of the deposited data

How the results depend on the processing

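The number of interferon stimulated genes called in maturation was 26 to 36 in CTRL, 18 to 35 in Ifnar1-KO and 25 to 31 in GF under the alternatives other than single arrays left out, and 24 to 32 in each background when any 1 array was left out. The lowest count, 18 in Ifnar1-KO (12 higher, 6 lower), came with only the groups compared in the fit, in which no other group adds to the spread. The replicate block pairs the stages by replicate number within a background. With it 32 genes were called in CTRL, 34 in Ifnar1-KO, 30 in GF and 0 in both differences of maturation. For comparisons within a stage and over both stages, the block was instead a term for the replicate number, shared by all backgrounds. It does not pair the stages. With this term 0 genes were called within a stage and 1 in Ifnar1-KO minus CTRL over both stages. Neither block moved a count by over 1.5 times. In GF, whose numbers did not meet the rule for pairs, the pairing block added Adar (adjusted p 0.0142), Eif2ak2 (0.00906), Mx1 (0.0406), Pml (0.0361) and Slfn5 (0.0421), and Tor3a was lost (0.0720). For Ifnar1-KO minus CTRL in CCR7- cells 1 gene, Ifi27l2a, was called with the intensity trend, with array weights, with arrays centred on their medians and without both Ifnar1-KO replicate 2 arrays, and 0 to 1 when single arrays were left out. In CCR7+ cells 1 gene was called with array weights and without both Ifnar1-KO replicate 2 arrays, again Ifi27l2a, and 0 to 1 when single arrays were left out. For GF minus CTRL in CCR7- cells, leaving out single arrays gave 0 to 2. Over both stages, Ifnar1-KO minus CTRL gave 0 with only the groups compared and 0 to 1 without single arrays. Neither difference of maturation had a call under any alternative run. The near-zero change of Usp18 turned sign with array weights in GF (0.11) and without single arrays, where it ranged from -0.17 to 0.033 in CTRL, -0.095 to 0.33 in Ifnar1-KO and -0.29 to 0.15 in GF; that of Mx1 in Ifnar1-KO ranged from -0.036 to 1.54. Of the values of single named genes, 2079 kept direction and call, 27 gained and 17 lost the call, and 8 turned sign; the cause was not tested.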
